A study of Mus musculus with 6 samples.

Results

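The enzymes described here make serine, proline and asparagine and load one-carbon units onto folate. They were chosen by name: Phgdh, Psat1, Psph, Shmt1, Shmt2, Mthfd2, Mthfd1l, Pycr1, Aldh18a1 and Asns, 10 genes beside the 12262 genes that could be tested in all. By current or former symbol 16 probes belonged to them, and 13 probes of 8 genes were detected (detection p below 0.05, against negative control beads) on at least 3 of the 6 arrays. The probe of Psph was not detected on any array, with levels of 4.47 to 4.77 where the lowest detected levels were 5.15 to 5.22, and no probe carried a symbol of Mthfd1l. A second probe of Pycr1 and a probe listed under Pycs, the former name of Aldh18a1, were also not detected on any array.

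Total RNA came from whole fetal livers of mouse embryos of the strain C57/Bl6:129Sv at stage E13.5, and was hybridised to Illumina bead arrays. The 3 double transgenic livers carried R26-LSL-KITD816V together with Vav-iCre, so that Cre made in blood cells removes a stop cassette and KIT with the activating D816V substitution is made from the ROSA26 locus. The 3 controls were single transgenic: control 1 carried Vav-iCre alone, and controls 2 and 3 carried R26-LSL-KITD816V without Cre. By genotype control 1 came from another embryo than controls 2 and 3. Beyond that the labels do not say whether each array held a separate embryo, so part of the spread that the p-values rest on may be technical.

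Serine is built from a glycolytic intermediate in 3 steps, by PHGDH, PSAT1 and PSPH in turn. The SHMT enzymes then move a carbon from serine to tetrahydrofolate, SHMT1 mainly in the cytosol and SHMT2 in mitochondria, where MTHFD2 and MTHFD1L oxidise it and release it as formate for purine and thymidylate synthesis. ALDH18A1 and PYCR1 make proline from glutamate in mitochondria, and ASNS makes asparagine from aspartate. In other cells many of these genes are known targets of ATF4, the transcription factor of the amino acid response, which binds C/EBP-ATF response elements.

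The promoters of Asns and Pycr1 are shown because they alone of the 10 genes held the core letters of that element. The letters searched were TGATGNAA, on both strands, in the 250 bases before each annotated start (RefSeq, build GRCm38.p6). They occurred in 2 of the 11 windows of the 10 genes and in 3.45% of all 32851 windows. Capitals mark the match, which began 23 bases before the start in Asns and 103 bases before it in Pycr1. Both windows are given 5′ to 3′ in the direction of the gene, on the minus strand, at chr6:7693210-7693459 and chr11:120643749-120643998.
Asns: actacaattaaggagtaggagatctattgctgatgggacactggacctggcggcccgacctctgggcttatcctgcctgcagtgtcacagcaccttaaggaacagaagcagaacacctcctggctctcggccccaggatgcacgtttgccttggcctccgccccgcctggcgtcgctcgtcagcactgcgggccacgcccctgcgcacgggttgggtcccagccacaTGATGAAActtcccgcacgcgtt
Pycr1: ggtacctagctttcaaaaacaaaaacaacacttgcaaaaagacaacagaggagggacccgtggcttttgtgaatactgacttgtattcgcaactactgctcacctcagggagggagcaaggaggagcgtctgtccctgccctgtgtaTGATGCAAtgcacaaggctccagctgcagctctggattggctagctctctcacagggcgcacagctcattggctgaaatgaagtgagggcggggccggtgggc
A match describes these letters only, and their absence from the other windows says nothing about binding of a factor.

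The enzymes did not move as a block. In the double transgenic livers Pycr1 rose, Shmt1 fell, and the other 6 measured genes did not pass in the comparison of the groups (limma, Benjamini-Hochberg adjusted over all genes, threshold 0.05). The same fit called 2.53% of all 12262 genes higher and 6.4% lower. The median difference of the 8 genes was 0.58 on the log2 scale, beside 0.07 over all genes. The double transgenic levels lay above all control levels in 4 of the 8 genes (Pycr1, Aldh18a1, Asns and Mthfd2) and below them in 1 (Shmt1), where 14.8% and 13.7% of all genes were separated in these directions. All levels are normalized log2 intensities, and all differences are double transgenic minus control. A probe's brightness depends on its sequence, so the levels of different probes have no order, and only their changes are compared.

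**Figure D1:**
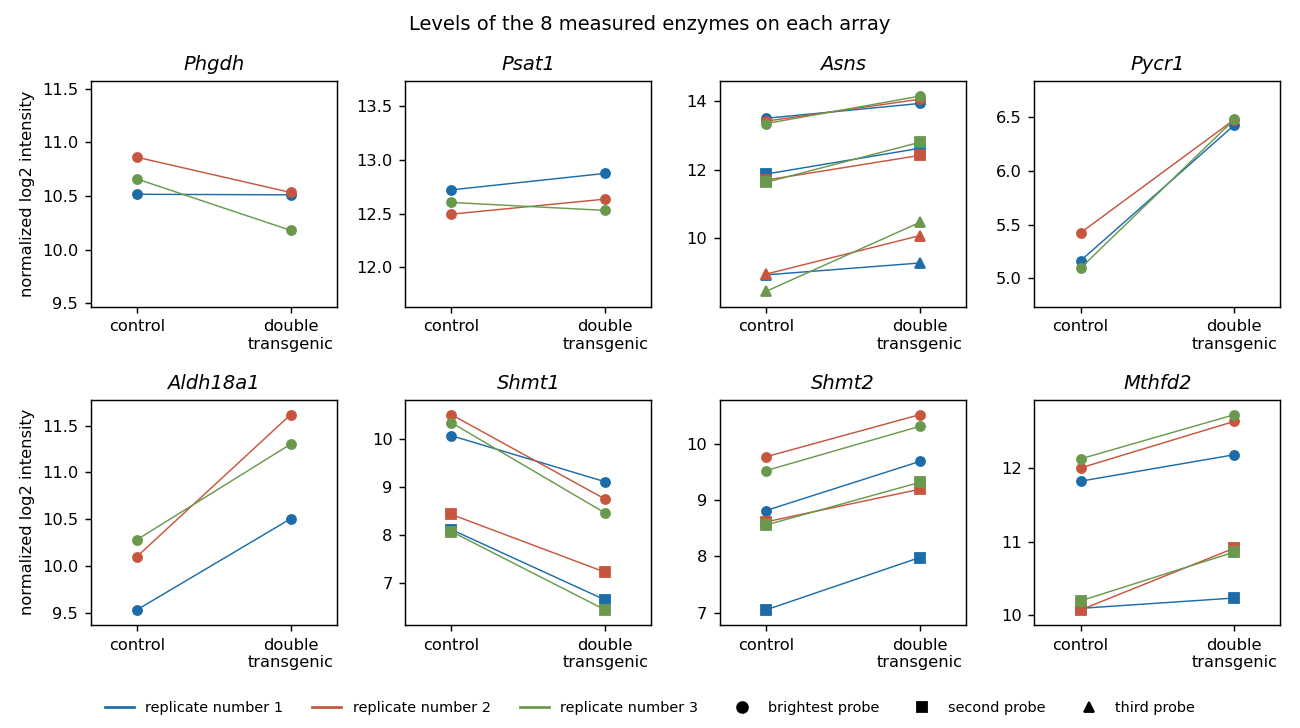
Normalized log2 intensity of each of the 8 measured genes on every array, control on the left and double transgenic on the right. Lines join arrays with the same replicate number, and marker shapes separate probes of 1 gene. All lines of Shmt1 point down and all lines of Pycr1, Aldh18a1, Asns, Shmt2 and Mthfd2 point up, while the levels of Phgdh, Psat1 and Shmt2 overlap between the groups.

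The first enzymes of serine synthesis showed no change that passed. Phgdh, which oxidises 3-phosphoglycerate, was at 10.52, 10.86 and 10.66 in controls 1 to 3 and at 10.51, 10.53 and 10.18 in double transgenic livers 1 to 3. The groups overlapped, and the difference was -0.27 (SE 0.19, 95% interval -0.71 to 0.16, adjusted p = 0.448 by limma). Psat1, the transaminase of the next step, was at 12.72, 12.49 and 12.60 in controls and at 12.87, 12.63 and 12.53 in double transgenic livers. These values overlapped as well, with a difference of 0.07 (SE 0.18, 95% interval -0.34 to 0.48, adjusted p = 0.849 by limma). Each of these intervals holds differences in either direction, and the probe of Psph, the gene of the third enzyme, was not detected on any array.

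The serine hydroxymethyltransferases had differences of opposite sign, of which that of Shmt1 passed. Shmt1, the cytosolic enzyme, was at 10.06, 10.50 and 10.33 in controls and at 9.11, 8.74 and 8.45 in double transgenic livers. Every double transgenic level lay below every control level. Shmt1 fell by 1.53 (SE 0.22, adjusted p = 0.00397 by limma), which makes the controls 2.89-fold higher. Its second probe read 8.11, 8.43 and 8.07 in controls and 6.65, 7.22 and 6.44 in double transgenic livers, and fell by 1.43 (SE 0.24, adjusted p = 0.0074 over all 17855 kept probes, of which 2.32% were called higher and 5.78% lower). In whole liver, fewer cells of a type that makes a transcript and less of it per cell cannot be told apart.

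Shmt2, the mitochondrial enzyme, was at 8.82, 9.78 and 9.53 in controls and at 9.69, 10.53 and 10.32 in double transgenic livers. The groups overlapped in that double transgenic liver 1 lay below control 2. Array 1 was the lowest of each group, in the controls by 0.84 and in the double transgenic livers by 0.73 below the mean of the other two. The difference was 0.81 (SE 0.31, 95% interval 0.10 to 1.51) and did not pass (adjusted p = 0.161 by limma). Between arrays of the same replicate number, known from the titles alone, it was 0.88, 0.75 and 0.79. Deviations from the group means did not tell the numbers 2 and 3 apart, which limits every result that uses the number as a block. With the replicate number as a block Shmt2 rose (adjusted p = 0.0164), and it also passed without replicate 1 of both groups (0.77, adjusted p = 0.0414). Its second probe, at 7.05, 8.62 and 8.56 in controls and 7.98, 9.20 and 9.32 in double transgenic livers, gave 0.76 (SE 0.48, adjusted p = 0.405 over all kept probes) and had the same low arrays. Control 1 is also the only control with Vav-iCre, so its genotype and its number cannot be told apart.

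The changes of Shmt2 and Shmt1 were compared directly through the log2 ratio of their probes on each array, whose absolute value has no meaning. It did not overlap between the groups and was higher by 2.34 in the double transgenic livers (SD 0.28 and 0.71, n = 3 per group, two-sided exact permutation p = 0.1, 0.2 adjusted over 2 pairs of enzymes). With 3 arrays against 3, 0.1 is the smallest p this test can give.

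Mthfd2, the mitochondrial dehydrogenase and cyclohydrolase that follows SHMT2, was at 11.83, 12.01 and 12.13 in controls and at 12.19, 12.64 and 12.73 in double transgenic livers. The groups did not overlap, but by little: the lowest double transgenic array was close to the highest control. The difference of 0.53 (SE 0.21, 95% interval 0.06 to 1.00) did not pass (adjusted p = 0.167 by limma, and 0.0622 with the replicate block). The second probe gave 0.55 (SE 0.22, adjusted p = 0.191 over all kept probes). Without replicate 1 of both groups Mthfd2 passed (0.62, adjusted p = 0.0481). Mthfd1, the cytosolic counterpart, differed by 0.30 (SE 0.19, adjusted p = 0.406 by limma). The difference between both changes was 0.24, with overlapping groups (exact permutation p = 0.3).

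**Figure D2:**
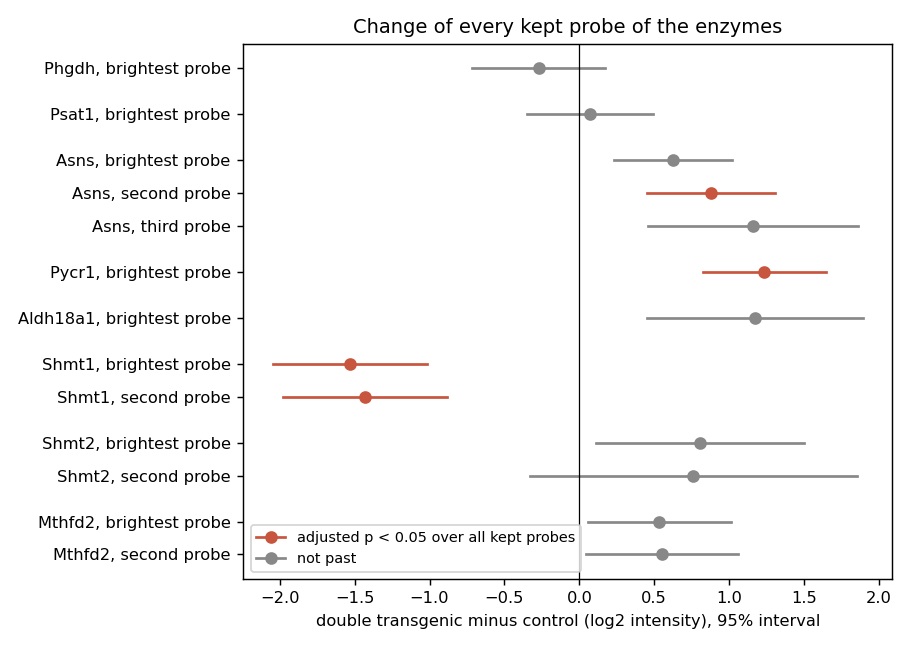
Difference between double transgenic and control livers for each of the 13 kept probes, with its 95% interval, on the log2 scale. Red marks adjusted p below 0.05 over all kept probes: both probes of Shmt1 lie below 0, and Pycr1 and the second probe of Asns above it.

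In proline synthesis both measured enzymes were higher on every double transgenic array, and Pycr1 passed. Pycr1, which makes proline in the last step, was at 5.16, 5.42 and 5.09 in controls and at 6.43, 6.48 and 6.48 in double transgenic livers. It rose by 1.23 (SE 0.17, adjusted p = 0.00336 by limma). The signal was dim: Pycr1 was detected on 1 of 3 control arrays and on all 3 double transgenic arrays, so it was kept through the group where it is high. Controls 1 and 3 lay below the lowest detected levels of their arrays (5.18 and 5.16). With no filter on dim probes it passed as well (adjusted p = 0.00665). The size of its rise depended on the background correction, at 0.43 without it (adjusted p = 0.0272).

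Aldh18a1, which makes the shared precursor of proline and ornithine from glutamate, was at 9.53, 10.10 and 10.28 in controls and at 10.50, 11.62 and 11.30 in double transgenic livers. Every double transgenic level lay above every control level, and array 1 was again the lowest of each group. The difference of 1.17 (SE 0.32, 95% interval 0.44 to 1.90), 2.25-fold, did not pass (adjusted p = 0.0596 by limma). With the replicate block Aldh18a1 rose (adjusted p = 0.00987). It also passed without double transgenic replicate 1 (1.49, adjusted p = 0.00988) and did not pass when any other single array was left out (adjusted p up to 0.19).

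Asns, asparagine synthetase, had 3 kept probes, and all 3 separated the groups. The brightest, which stands for the gene, was at 13.502, 13.418 and 13.348 in controls and at 13.93, 14.06 and 14.15 in double transgenic livers. Its difference of 0.62 (SE 0.17, 95% interval 0.24 to 1.01) did not pass (adjusted p = 0.0564 by limma) but did with the replicate block (adjusted p = 0.0436). The second probe was at 11.87, 11.70 and 11.63 in controls and at 12.63, 12.42 and 12.80 in double transgenic livers, and rose by 0.88 (SE 0.19, adjusted p = 0.0227 over all kept probes). That call was lost without control replicate 2 (adjusted p = 0.108), control replicate 3 (adjusted p = 0.107) or double transgenic replicate 3 (adjusted p = 0.0822). The dimmest probe differed most, by 1.16 (SE 0.31, adjusted p = 0.0547 over all kept probes), with double transgenic levels of 9.28, 10.08 and 10.46. With its probes averaged Asns rose by 0.89 (adjusted p = 0.0254). The brightest probe lay nearest to the highest level on the arrays, 15.27, and had the lowest difference of the 3. Whether brightness limited it was not tested.

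**Figure D3:**
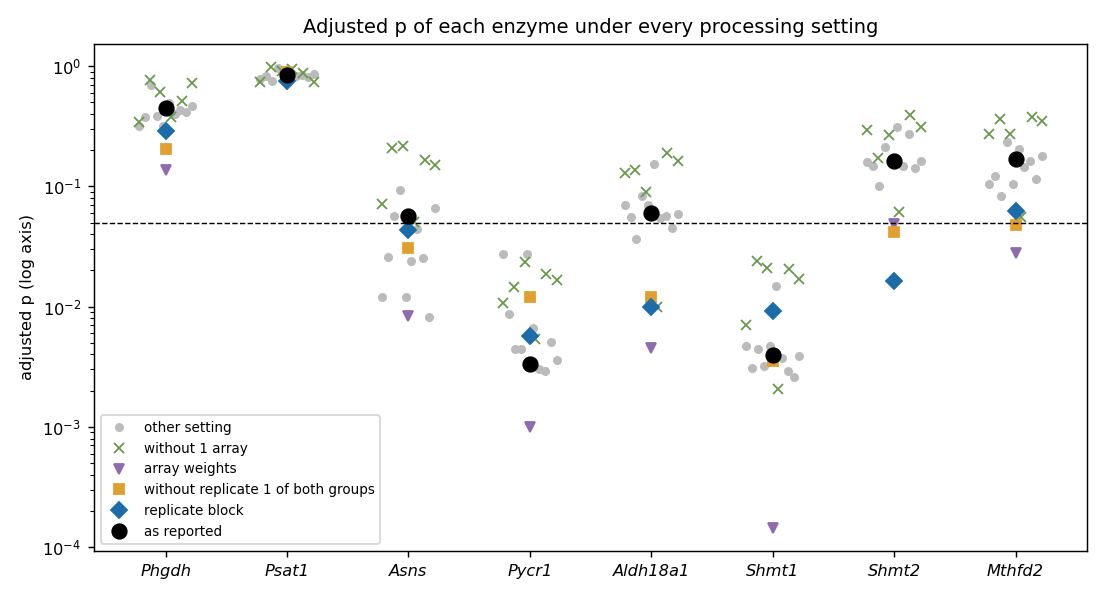
Adjusted p of each gene, on a log axis, as reported and under each processing setting, with the threshold of 0.05 as a dashed line. Pycr1 and Shmt1 lie below the line under all settings run, Phgdh and Psat1 above it under all, and Asns, Aldh18a1, Shmt2 and Mthfd2 on both sides of it.

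Which of these genes passed differed with the setting. With the replicate number, taken from the titles alone, as a block, 4 of the 8 genes rose (Pycr1, Aldh18a1, Asns and Shmt2) and Shmt1 fell. That fit called 5.15% of all genes higher and 9.06% lower. Without replicate 1 of both groups 5 rose, Mthfd2 being the fifth, and Shmt1 fell, where 5.85% of all genes were called higher and 9.08% lower. That fit leaves out the only control with Vav-iCre, so Cre and KIT D816V cannot be told apart in it. Asns also passed under settings that leave the arrays as they are, among them no background correction (adjusted p = 0.012). It did not pass when any single array was left out. The adjusted p by limma then ran from 0.0507 without double transgenic replicate 1 to 0.215 without control replicate 3.

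The other genes of these pathways, 51 in all, were taken from 6 lists, and 38 of them had a kept probe. None rose, 12 fell and 26 missed the threshold, where 2.53% of all genes were called higher and 6.4% lower. The median difference of the 38 was -0.07, beside 0.07 over all genes. Bhmt and Cbs, which are among the 12, were detected on no double transgenic array. They were thus kept through the controls, where they are high. Among the 12 were enzymes that break down glycine, proline, glutamate and formyl-folate, and enzymes of hepatic methionine metabolism.

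Of 5 measured genes of mitochondrial folate and glycine cleavage, Gldc, the glycine decarboxylase, fell by 3.09 (SE 0.35, adjusted p = 0.00154 by limma), from 10.73, 11.39 and 11.26 in controls to 8.77, 7.94 and 7.41. The other 4, with Sfxn1, a mitochondrial serine carrier, at 0.30 and Slc25a32, the mitochondrial folate carrier, at 0.34, did not pass. Of 11 measured genes of cytosolic folate metabolism 2 fell. Ftcd, which feeds carbon from histidine breakdown into folate, was at 10.42, 10.55 and 10.28 in controls and at 8.37, 7.58 and 7.14 in double transgenic livers. It fell by 2.72 (SE 0.30), and by 1.63 with its 2 kept probes averaged. Aldh1l1, which oxidises formyl-folate, fell by 1.10 (SE 0.25, adjusted p = 0.0297 by limma), a call that ended when some of the arrays were left out one at a time (highest adjusted p = 0.118) and in values with no background correction (-0.42, adjusted p = 0.078). The purine enzymes Gart (0.36) and Atic (0.36) and thymidylate synthase Tyms (-0.23), which use these carbon units, did not pass.

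Methionine metabolism and transsulfuration held 5 of the falls among 9 genes, with a median difference of -1.62. Gnmt, which methylates glycine, fell by 3.22 (SE 0.29) and Bhmt2, which remakes methionine, fell by 3.00 (SE 0.27). Mat1a, the hepatic S-adenosylmethionine synthetase, changed by -2.60 (SE 0.23). Gnmt was detected on 2 of 3 double transgenic arrays, and fell by 2.52 with its 2 kept probes averaged. Bhmt and Cbs, which turn homocysteine to methionine and cystathionine, had no detection in the double transgenic group, and were at least 2.11-fold and at least 2.80-fold lower. The adjusted p by limma, 0.0108 and 0.0113, were for the levels as normalized and not for these bounds. With no filter on dim probes the adjusted p by limma were 0.0434 and 0.0467. For these bounds, the double transgenic level was taken on each array as the lowest detected level or the gene's own, whichever was higher. Mat2a, the S-adenosylmethionine synthetase of most other tissues, did not pass, at 0.01 (SE 0.24).

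Of 5 other genes of proline metabolism, Prodh2, which oxidises hydroxyproline, fell by 2.96 (SE 0.38) and Aldh4a1, which ends the breakdown of proline to glutamate, by 1.57 (SE 0.21). Prodh, the proline oxidase, stood at -0.37 and Oat, ornithine aminotransferase, at 0.62, neither past the threshold. Of 6 genes of glutamate, aspartate and alanine, Glud1, glutamate dehydrogenase, fell by 1.67 (SE 0.27) and Gpt2, a mitochondrial alanine transaminase, by 1.08 (SE 0.18, adjusted p = 0.00808 by limma). The calls of Gpt2 and of Bhmt were lost without control replicate 2 (adjusted p = 0.0514 and 0.0506). Neither of 2 measured genes of serine use passed, Srr, serine racemase, at 0.04 and Sptlc1, of sphingolipid synthesis, at -0.05. Without background correction these falls were smaller and still passed, at -1.68 for Gnmt, -1.96 for Bhmt2, -1.43 for Mat1a and -0.62 for Gpt2. Bhmt and Cbs then stood at -0.61 (adjusted p = 0.0344) and -0.62 (adjusted p = 0.0496), which is less than the bounds given for them, so those bounds hold for background-corrected levels only.

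**Figure D4:**
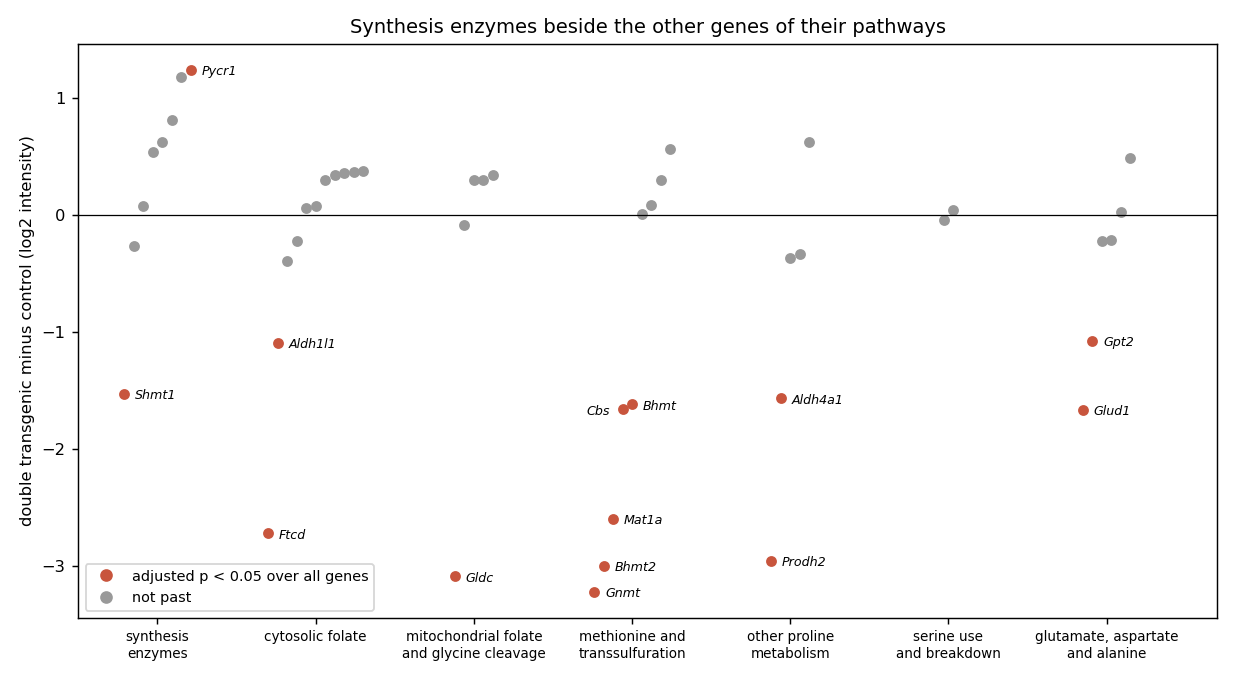
Difference between double transgenic and control livers on the log2 scale for the 8 synthesis enzymes and, by list, the 38 other measured pathway genes. Red marks adjusted p below 0.05 over all genes: the 12 called pathway genes all lie below 0, down to -3.22 for Gnmt.

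Some markers of cell types also differed between the groups. All 10 measured liver epithelial markers fell, and their mean level was 12.50 to 12.73 in controls and 10.10 to 10.90 in double transgenic livers. The probes of Alb and Fgb, defining genes of hepatocytes, were not detected on any array, while Afp, Ttr, Apoa1 and Apoa2 were detected on all 6. Of 10 macrophage markers 9 fell (mean level 8.68 to 8.95 against 6.71 to 7.22), of 9 late erythroid markers 4 fell (12.11 to 12.34 against 10.67 to 11.41) and of 6 endothelial markers 1 fell (8.35 to 8.40 against 7.65 to 8.38). Of 5 stem, progenitor and mast cell markers 2 rose, Gata2 (1.07) and Prss34 (1.19), and 1 fell, Cpa3 (-1.29). Their mean level was 6.93 to 7.09 against 7.20 to 7.43. Kit (0.77) and Cd34 (-0.08) did not pass. Prss34, 1 of the 2, was detected on no control array and on all 3 double transgenic arrays. It was thus kept through the group where it is high, and its undetected control levels enter the mean. Fcer1a was not detected on any array, and Ms4a2 and Mcpt8, detected on at most 2, were not kept. Over all genes 2.53% were called higher and 6.4% lower. The part of these cell types in the fall of Shmt1 and of the 12 pathway genes, or in the rise of Pycr1, was not tested.

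The genes most like the 2 called enzymes over the 6 arrays were found by the root mean square difference of levels centred on each gene's mean. For Shmt1 they were Pcolce2 (0.07), a collagen processing enhancer, Mfge8 (0.08), a secreted bridge between dying cells and phagocytes, and Ebpl (0.10). For Pycr1 they were Simc1 (0.07), Zbtb32 (0.12), a zinc finger repressor, and Soga1 (0.13). Genes chosen in this way differ between the groups by construction.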

How the data were processed

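Detection ranged from 17249 to 17873 of the 45281 probes on an array (38.1% to 39.5%), and the number of arrays limits the precision. The deposited table holds linear signal intensity without normalization between arrays and a detection p-value per probe, per the file headers. The submitters' processing notes name GenomeStudio, with no version. The authors' value table holds intensity within 0.303% of quantile normalized deposited signal for all probes.

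In R 4.3.3 with limma 3.58.1, background was corrected by normexp with controls inferred from the detection p-values (offset 16), followed by log2 and quantile normalization. Probes detected on at least 3 of 6 arrays were kept (17855). Symbols were updated through RefSeq (GRCm38.p6): 27380 probes had a current symbol, 8359 an older one, and the rest kept the file's name. Each of 12262 genes was represented by its kept probe with the highest mean. Groups were compared with lmFit and eBayes, two-sided, and pairs of enzymes by exact permutation. The fit was also run on simulated data with independent noise for each gene and array, which leaves out any correlation between arrays.

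Titles number both groups 1 to 3. The number was used as a block in an alternative, with the titles as the only source. As a check, deviations from the group means correlated between same-numbered arrays at 0.536, 0.283 and 0.206. The numbers 2 and 3 were not told apart by this check: control 3 correlated with double transgenic 2 at 0.371, above its own number, and arrays numbered 1 correlated negatively with the others of the opposite group. All arrays shared 1 chip, controls on the first positions, so position and group cannot be told apart. Members, lists and tests were chosen with earlier results of these data known. Named were all members with a kept probe, all pathway genes past the threshold, Mthfd1, and the 3 genes most like each called member without predicted genes; other pathway genes were named after their values were seen. One further gene of the lists is not reported here.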

Additional observations from a re-analysis of the deposited data

How the results depend on the processing

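Pycr1 rose (0.43 to 1.33) and Shmt1 fell (-1.82 to -1.31) under all 19 alternatives, and Phgdh and Psat1 passed under none. The difference of Psat1 turned negative with cyclic loess (-0.0224) and ranged from -0.0241 to 0.148 without single arrays, lowest without double transgenic replicate 1. Asns passed under 10 of the 19, Aldh18a1 under 6, Shmt2 under 3 and Mthfd2 under 2. The 19 are not independent of each other. The authors' value table nearly repeated the values without background correction, and testing every kept probe left the differences unchanged. The number of the 8 genes called higher was 1 as reported and 2 with no background correction, a normexp offset of 50, median scaling, the authors' value table, no filter or a stricter filter on dim probes, or averaged probes. It was 3 with trend and robust moderation, 4 with the replicate block, 5 with array weights, 5 without replicate 1 of both groups and 1 to 2 without single arrays. Of all genes 2.53% were called higher as reported, 5.15% with the replicate block and 5.85% without replicate 1 of both groups. With array weights more of all genes were called higher too, as given below. The counts of the 8 genes thus moved along with those of all genes under these settings. The number called lower stayed at 1.

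Of the pathway genes 9 to 12 fell without single arrays. With array weights 1 pathway gene rose, Oat (0.72). Over all genes, 310 rose and 785 fell as reported. With array weights 1238 rose and 1511 fell, with the replicate block 632 rose, and without replicate 1 of both groups 717 rose. Without single arrays 100 to 453 rose and 455 to 942 fell, the lowest counts without control replicate 2. The differences of changes between paired enzymes kept their sign under all alternatives run. The causes of these shifts were not tested.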
